A study of Mus musculus with 35 samples.

Results

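Copying the genome before each division depends on a small set of proteins, and the genes that encode them were examined here in mouse cardiac fibroblasts and hearts. 44 genes of DNA replication and S phase were chosen by name from the 55487 genes listed in each deposited table. They fall into 8 groups by role, namely origin licensing, the MCM helicase, helicase activation, polymerases and primase, the sliding clamp with its loader and strand handling, nucleotide supply, G1/S regulators and maintenance of DNA methylation. The rule is a list of names and uses no measured value, though the list was chosen with earlier results of these data known. All 44 passed the filter on low counts in the fibroblasts, and 40 of 44 passed it in the hearts.

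The study comprised 35 mouse RNA libraries. Fibroblasts isolated by enzymatic digestion of adult mouse hearts were grown on collagen-coated plates with fetal bovine serum, and were given a control siRNA (si-NC) or 1 of 2 siRNAs (si-IAMP-1, si-IAMP-2) against IAMP, a micropeptide gene listed as 4930523C07Rik. Each siRNA was used in cells with no added factor (untreated), in cells given IL-17 for 24 h after 24 h of siRNA, and in cells given TGF-β, with 3 libraries in each of the 9 groups while no such times were found for the other 2 conditions. The other 8 libraries came from whole hearts of C57BL/6 mice, 4 heterozygous (Het) and 4 homozygous (KO) for an IAMP frameshift made by CRISPR, so the Het controls also carried a mutated allele. The heart columns carry a different number for each of the 8 hearts. Nothing in the labels says that fibroblast replicates came from separate cultures or animals, and p-values in fibroblasts therefore measure the spread between these libraries, which may be technical.

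Before S phase, the origin recognition complex with Cdc6 and Cdt1 loads the MCM ring onto DNA. In S phase, Cdc45 and the GINS complex turn this ring into an active helicase, and primase and the polymerases copy both strands behind it. PCNA is the clamp that holds the polymerases on DNA, and RFC loads that clamp. Many of these genes are transcribed in late G1 and S phase under E2F transcription factors, and their RNA is widely used as a sign of cycling cells. Cardiac fibroblasts divide in culture and after injury, whereas most muscle cells of the adult heart do not.

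The promoter stretches that follow are shown because their capitals are letters of the kind that E2F factors bind. RefSeq promoter windows of 300 bases around the start site (build GRCm38.p6) were found for 35 of the 44 genes and searched on both strands for TTTCCCGC, TTTCGCGC, TTTGCCGC and TTTGGCGC, which can overlap each other. At least 1 of these was present in 16 of 35 genes (45.7%), beside 704 of all 27025 genes with a window (2.6%). Each stretch is written 5′ to 3′ on the strand of its gene. RefSeq start sites can differ from the gene coordinates given below. The stretches of Cdc6, Uhrf1 and Dnmt1 lie inside the annotated spans of these genes.
Cdc6 (chr11:98907999-98908034, plus strand): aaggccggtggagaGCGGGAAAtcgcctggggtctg
Orc1 (chr4:108579413-108579448, plus strand): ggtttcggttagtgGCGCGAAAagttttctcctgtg
Mcm5 (chr8:75109342-75109377, plus strand): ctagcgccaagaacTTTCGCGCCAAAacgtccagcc
Mcm6 (chr1:128359794-128359829, minus strand): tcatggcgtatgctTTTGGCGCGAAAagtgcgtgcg
Pola1 (chrX:93632272-93632307, minus strand): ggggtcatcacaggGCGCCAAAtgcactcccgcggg
Uhrf1 (chr17:56304114-56304149, plus strand): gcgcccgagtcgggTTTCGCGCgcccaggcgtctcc
Dnmt1 (chr9:20952821-20952856, minus strand): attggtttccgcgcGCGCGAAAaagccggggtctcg
In Mcm5 and Mcm6, matches on opposite strands overlapped into longer runs of capitals. CCAAT, the letters bound by NF-Y, was present in 65.7% of the 35 genes beside 41.1% of all genes, and TTTGAA, known as the cell cycle homology region, in 17.1% beside 20.2%. The windows of the replication genes also held more G and C than all windows (medians of 57.7% and 52.7%) and more CG pairs (medians of 21.0 and 7.0). A match describes letters in a window and is no measured binding.

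The fibroblast libraries held 104139670 to 119232309 estimated counts and the heart libraries 23497027 to 23857313 counts. In untreated cells, IAMP RNA (4930523C07Rik) stood at 22.0, 22.7 and 25.7 CPM (counts scaled to a common library size) with si-NC, at 2.52, 3.51 and 2.98 with si-IAMP-1 and at 1.77, 1.87 and 1.89 with si-IAMP-2, and both siRNA groups lay far below si-NC. In hearts it was at 15.9 to 18.8 CPM in Het and 15.2 to 17.3 CPM in KO, and the heart muscle markers there summed to 34378 to 37589 CPM. Because a frameshift need not change the RNA level, the IAMP level does not check the genotype. All 8 fibroblast markers were detected, and their sum ran from 11424 to 11792 CPM with si-NC, from 16737 to 17612 with si-IAMP-1 and from 16105 to 16345 with si-IAMP-2 in untreated cells. The 5 heart muscle markers summed to 90.2 to 97.9, 42.1 to 47.1 and 27.7 to 32.7 CPM in the same order, almost all of it Tnnt2, which fell with both siRNAs (-1.08 and -1.66 on the log2 scale), while Myh6 was at 0 in all libraries of si-NC and si-IAMP-2. The 5 macrophage markers summed to 17.6 to 19.8, 22.4 to 22.8 and 29.4 to 30.9 CPM, the 5 endothelial markers to 46.8 to 52.6, 42.9 to 47.6 and 41.2 to 45.5, and the 5 smooth muscle and pericyte markers to 57.7 to 66.6, 51.0 to 56.2 and 44.8 to 54.9. Single markers did not all follow their sums. With si-IAMP-1 the log2 changes ran from -0.95 to 0.97 in fibroblast markers and from -0.68 to 0.49 in macrophage markers. They ran from -0.76 to 0.23 in endothelial markers and from -0.45 to 1.05 in smooth muscle and pericyte markers. The part of these shifts in the replication genes was not tested.

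RNAs of nearly the whole replication machinery were lower with both siRNAs against IAMP in untreated fibroblasts. The summed level of the 44 genes, scaled by TMM as all fibroblast CPM here, was 2141, 2102 and 2142 CPM with si-NC, 1467, 1430.0 and 1515 with si-IAMP-1 and 1182, 1137 and 1165 with si-IAMP-2, and the groups did not overlap. A gene was called where the quasi-likelihood test of edgeR gave it an adjusted p, by Benjamini and Hochberg over all genes tested, at or under 0.05. On this rule 40 of 44 genes fell and 0 rose with si-IAMP-1, and the median log2 change was -0.56. With si-IAMP-2, 43 of 44 fell and 0 rose, with a median of -0.93. Over all 19669 genes tested, 20.4% were called lower and 19.5% higher with si-IAMP-1, and 25% lower and 24.4% higher with si-IAMP-2, with medians of -0.016 and -0.02. A fall of at least 1 on the log2 scale was called in 3 genes with si-IAMP-1 (2.61% of all genes) and in 20 genes with si-IAMP-2 (7.23%). In bulk RNA, fewer cells in S phase and less of these RNAs in each cell cannot be told apart.

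**Figure D1:**
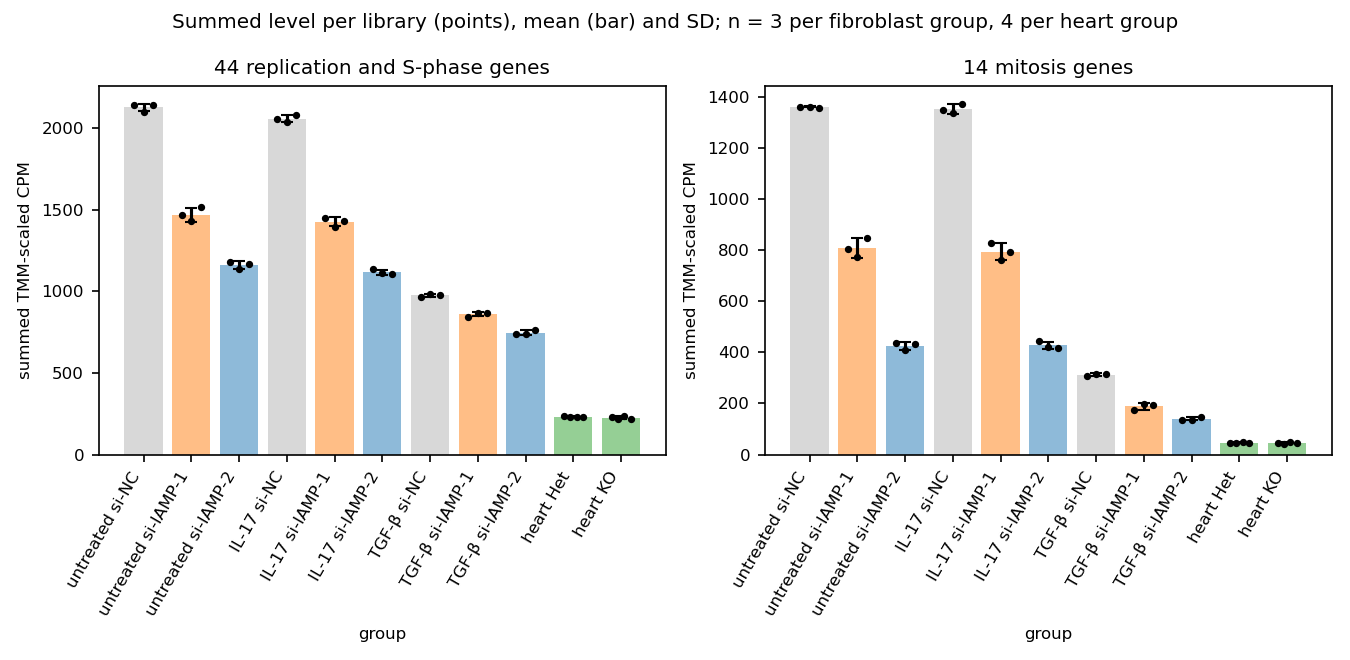
Summed TMM-scaled CPM of the 44 replication and S-phase genes (left) and of 14 mitosis genes (right) in each library, with points for libraries, bars for group means and error bars for the SD (n = 3 per fibroblast group, 4 per heart group). In untreated, IL-17 and TGF-β fibroblasts the sums stepped down from si-NC to si-IAMP-1 to si-IAMP-2. All TGF-β groups lay below the other fibroblast groups, and hearts lowest.

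Origin licensing fell with both siRNAs apart from Orc1 with si-IAMP-1. Cdc6 (chr11:98907801-98923940), the ATPase that brings the MCM ring to origins, was at 13.3, 13.0 and 14.5 CPM with si-NC, at 8.60, 8.25 and 9.74 with si-IAMP-1 and at 4.62, 4.27 and 4.18 with si-IAMP-2. The 3 groups were fully separate, with log2 fold changes of -0.63 ± 0.088 (SE, adjusted p = 2.02e-05) and -1.66 ± 0.091 (SE, adjusted p = 1.19e-10). Cdt1, its partner in loading, changed by -0.42 and -1.48 on the log2 scale, and Gmnn, which encodes the Cdt1 inhibitor geminin, by -0.72 and -0.74, so that the loader and its inhibitor both fell. Orc6 fell by similar amounts with both siRNAs (-0.63 and -0.71), while Orc1, the largest subunit of the origin recognition complex, had -0.0041 (adjusted p = 0.981) with si-IAMP-1 and fell with si-IAMP-2 (-0.47).

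All 6 subunits of the MCM2-7 helicase ring fell with both siRNAs. Mcm2 (chr6:88883474-88898780) was at 84.0, 79.9 and 79.6 CPM with si-NC, at 45.7, 44.1 and 51.3 with si-IAMP-1 and at 36.2, 35.4 and 34.5 with si-IAMP-2, without overlap between groups. Its log2 fold changes were -0.79 ± 0.051 (SE, adjusted p = 2.23e-09) and -1.22 ± 0.052 (SE, adjusted p = 4.58e-12). Mcm5 (chr8:75109569-75128439) fell most in the ring, from 78.6, 71.1 and 76.9 CPM with si-NC to 37.7, 35.0 and 38.7 with si-IAMP-1 and 30.7, 28.1 and 29.0 with si-IAMP-2. These were log2 fold changes of -1.03 ± 0.053 (SE, adjusted p = 1.64e-10) and -1.39 ± 0.054 (SE, adjusted p = 1.58e-12). The other subunits ranged from -0.44 (Mcm4) to -0.86 (Mcm7) with si-IAMP-1 and from -0.96 (Mcm3) to -1.29 (Mcm6) with si-IAMP-2. Compared per length of merged exons, the si-NC levels of the ring ran from 11.7 CPM per kb for Mcm2 to 29.9 for Mcm4.

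The helicase activators fell too, less evenly. Cdc45 (chr16:18780447-18811987), which binds the ring to start unwinding, was at 16.0, 14.8 and 15.4 CPM with si-NC, 10.3, 11.02 and 10.2 with si-IAMP-1 and 5.37, 5.87 and 5.80 with si-IAMP-2. Its log2 fold changes were -0.56 ± 0.073 (SE, adjusted p = 9.63e-06) and -1.46 ± 0.076 (SE, adjusted p = 5.84e-11), with no overlap between the 3 groups. Of the 4 GINS subunits, which act as a unit, Gins1 changed by -0.66 and -0.94, Gins2 by -0.33 and -0.92, Gins3 by -0.31 and -0.85, and Gins4 by only -0.33 and -0.23. Mcm10, which helps to start the fork, fell by 0.47 and 1.16 on the log2 scale. 67.3% of the exonic length of Gins2 lies opposite exons of Gse1, and 84.2% of that of Fen1 opposite Tmem258 and Gm10143, and since the counting is not stated to use strand, reads of these pairs cannot be told apart. Shorter overlaps with exons on the other strand were found for Ccne2 (17.4%), Rfc2 (15.1%), Rfc4 (12.7%), Orc1 (10.8%) and Rfc5 (10.7%). Some other genes had smaller ones, and the same limit holds for all of them.

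Among the polymerases and primase, all 7 genes fell with both siRNAs. Pole2 (chr12:69201773-69228195), a subunit of the leading-strand polymerase epsilon, was at 8.5005, 9.12 and 9.20 CPM with si-NC, 4.76, 4.77 and 5.36 with si-IAMP-1 and 3.15, 3.62 and 3.19 with si-IAMP-2. The log2 fold changes were -0.85 ± 0.10 (SE, adjusted p = 3.04e-06) and -1.45 ± 0.10 (SE, adjusted p = 3.27e-09). Partner subunits had unlike values with si-IAMP-2, where the primase catalytic gene Prim1 changed by -1.52 and its partner Prim2 by -0.53, and the polymerase alpha catalytic gene Pola1 by -1.39 and its partner Pola2 by -0.40. With si-IAMP-1 the same 4 genes lay between -0.37 (Prim1) and -0.60 (Prim2). Pold1 and Pole, the catalytic genes of polymerases delta and epsilon, changed by -0.40 and -0.64 with si-IAMP-1 and by -1.29 and -1.36 with si-IAMP-2.

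The genes of the clamp, its loader and the strand-handling proteins all fell, by unequal amounts. Pcna (chr2:132249162-132253314) was at 129.9, 131 and 135 CPM with si-NC, at 88.2, 84.3 and 93.5 with si-IAMP-1 and at 85.5, 85.2 and 90.4 with si-IAMP-2, and per length it was the most abundant of the 44 genes with si-NC (55.1 CPM per kb, followed by Rrm2 at 40.6). Both siRNA groups lay below si-NC and overlapped each other, with log2 fold changes of -0.58 ± 0.04 (SE, adjusted p = 5.14e-09) and -0.62 ± 0.04 (SE, adjusted p = 9.83e-10). Rpa2 (chr4:132768332-132778752), a subunit of the RPA complex that coats single-stranded DNA, was at 20.5, 21.1 and 23.2 CPM with si-NC, 9.06, 8.08 and 8.61 with si-IAMP-1 and 10.7, 10.5 and 9.34 with si-IAMP-2. It changed by -1.34 ± 0.078 (SE, adjusted p = 7.02e-10) and -1.10 ± 0.078 (SE, adjusted p = 2.96e-09), whereas Rpa1, the large subunit of the same complex, changed by -0.49 and -0.49. Of the 5 loader genes, Rfc1, the large subunit, changed least (-0.20 and -0.21) and Rfc4 by -0.74 and -1.19. Fen1, which trims Okazaki fragments, had -0.23 and -0.61, with the overlap named above.

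All 4 genes of nucleotide supply fell. Tk1 (chr11:117815526-117826092), the thymidine kinase that peaks in S phase, was at 41.1, 41.2 and 44.03 CPM with si-NC, 22.0, 20.1 and 23.7 with si-IAMP-1 and 15.1, 12.8 and 14.03 with si-IAMP-2. The 3 groups were separate, with log2 fold changes of -0.95 ± 0.071 (SE, adjusted p = 1.34e-08) and -1.61 ± 0.072 (SE, adjusted p = 9.13e-12). Rrm1 and Rrm2, which together make ribonucleotide reductase, changed by -0.42 and -0.67 with si-IAMP-1 and by -0.80 and -0.75 with si-IAMP-2. Tyms, which encodes thymidylate synthase, changed by -0.34 and -0.88.

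The G1/S regulators had the smallest share of calls with either siRNA among the 8 groups, 2 of 5 with si-IAMP-1 and 4 of 5 with si-IAMP-2. E2f1 (chr2:154559407-154569892), an activating E2F factor, was at 21.1, 22.0 and 21.0 CPM with si-NC, 20.4, 20.9 and 23.3 with si-IAMP-1 and 19.9, 20.7 and 18.0 with si-IAMP-2. The si-IAMP-1 values overlapped those of si-NC and the si-IAMP-2 values lay just below them, with log2 fold changes of 0.0043 ± 0.065 (SE, adjusted p = 0.973) and -0.15 ± 0.065 (SE, adjusted p = 0.0695), and E2f1 was called in 0 of the 6 siRNA comparisons, although its si-IAMP-2 change was called with library totals in place of TMM (-0.22) and with at least 10 counts required in every library (-0.16). E2f2 (chr4:136172394-136196057), another activating E2F factor, had 3.51, 2.98 and 2.43 CPM with si-NC, 1.27, 1.28 and 1.16 with si-IAMP-1 and 1.17, 0.882 and 0.879 with si-IAMP-2. It changed by -1.27 ± 0.19 (SE, adjusted p = 4.74e-05) and -1.62 ± 0.20 (SE, adjusted p = 2.21e-06), the largest mean change over both siRNAs among the 44 genes, at the lowest level per length (0.609 CPM per kb with si-NC). Ccne1 (chr7:38097984-38107534), which encodes the cyclin E1 that drives S-phase entry, was at 20.7, 21.1 and 20.3 CPM with si-NC, 18.5, 18.5 and 20.7 with si-IAMP-1 and 17.4, 16.0 and 17.1 with si-IAMP-2. With si-IAMP-1 it overlapped si-NC (-0.11 ± 0.063, SE, adjusted p = 0.187), although the Ccne1 change was called with library totals (-0.21), and with si-IAMP-2 it lay below (-0.32 ± 0.063, SE, adjusted p = 0.000435). Ccne2 was at -0.10 (adjusted p = 0.275) and -0.48, and Cdk2, the kinase partner of both cyclins, at -0.15 and -0.66.

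Dnmt1 and Uhrf1, which copy DNA methylation onto the new strand, both fell. Dnmt1 (chr9:20907209-20959888) was at 138, 143 and 129.6 CPM with si-NC, 82.1, 79.5 and 88.8 with si-IAMP-1 and 51.1, 46.9 and 48.3 with si-IAMP-2, in 3 separate groups. Its log2 fold changes were -0.72 ± 0.048 (SE, adjusted p = 3.36e-09) and -1.51 ± 0.049 (SE, adjusted p = 1.73e-13), and those of Uhrf1 were -0.56 and -1.60.

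**Figure D2:**
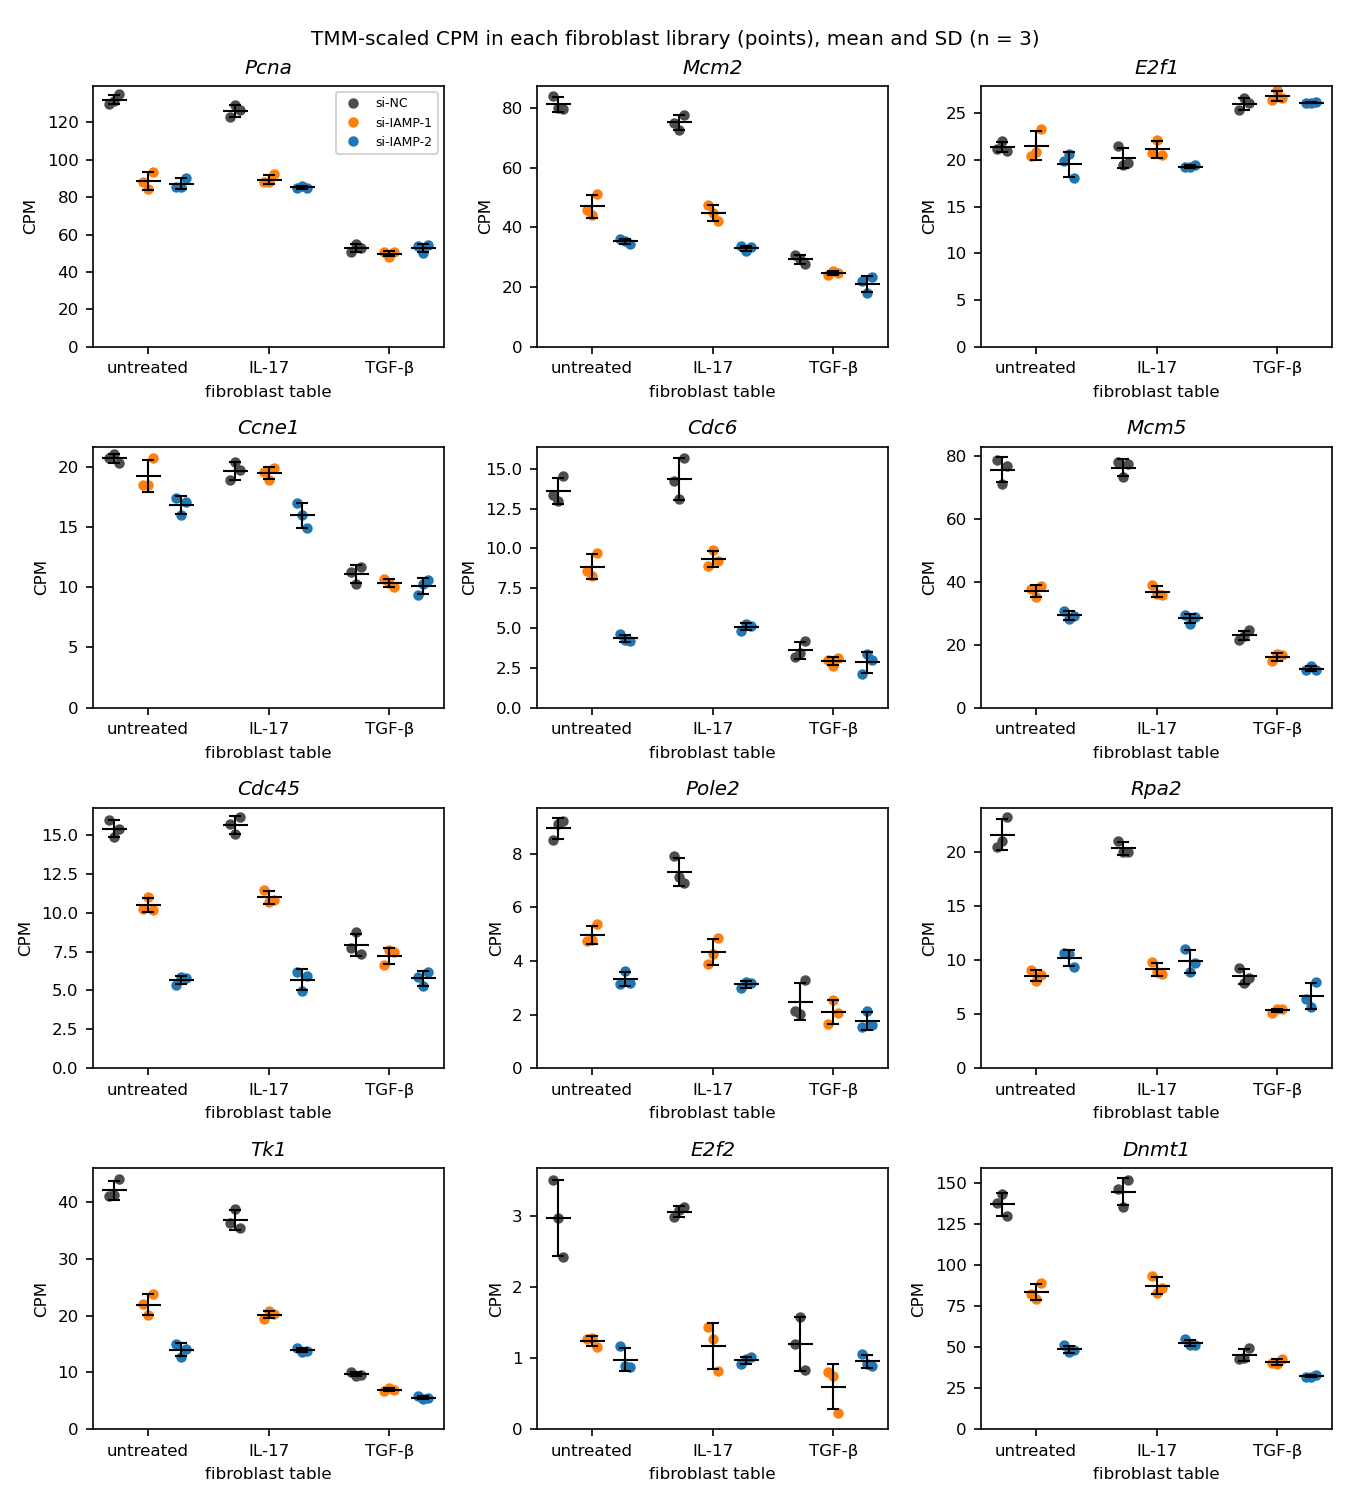
TMM-scaled CPM of 12 replication and S-phase genes in the 27 fibroblast libraries (points, coloured by siRNA), with mean and SD per group (n = 3) and each axis starting at 0. In untreated and IL-17 cells the si-NC points stood above both siRNA groups for most genes. E2f1 was called with neither siRNA with the filter and TMM scaling of the reported fits, and the si-NC levels of the other 11 genes were lower under TGF-β.

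The changes of many of these genes differed between the 2 siRNAs. Directly compared in untreated cells, 30 of 44 genes were lower and 1 was higher with si-IAMP-2 than with si-IAMP-1, beside 22.8% and 22.7% of all genes, with a median log2 difference of -0.44. The largest differences were in Prim1 (-1.15), Cdt1 (-1.06), Uhrf1 (-1.04) and Cdc6 (-1.04). Rpa2 was the gene that was higher (0.23 ± 0.078, SE, adjusted p = 0.0213). Pcna, Rpa1, Prim2 and Rfc1 were among the 13 genes with no call, with differences of -0.039, -0.0024, 0.069 and -0.0078. The IAMP RNA itself was lower with si-IAMP-2, at a log2 difference of -0.72 ± 0.12 (SE, adjusted p = 6.12e-05). The part of this in the differences between the siRNAs was not tested. Among the 35 genes with a promoter window, the 16 with E2F letters changed by a median of -1.34 on the log2 scale with si-IAMP-2 and -0.63 with si-IAMP-1, and the other 19 had -0.80 and -0.48, which is given as a description with no test.

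**Figure D3:**
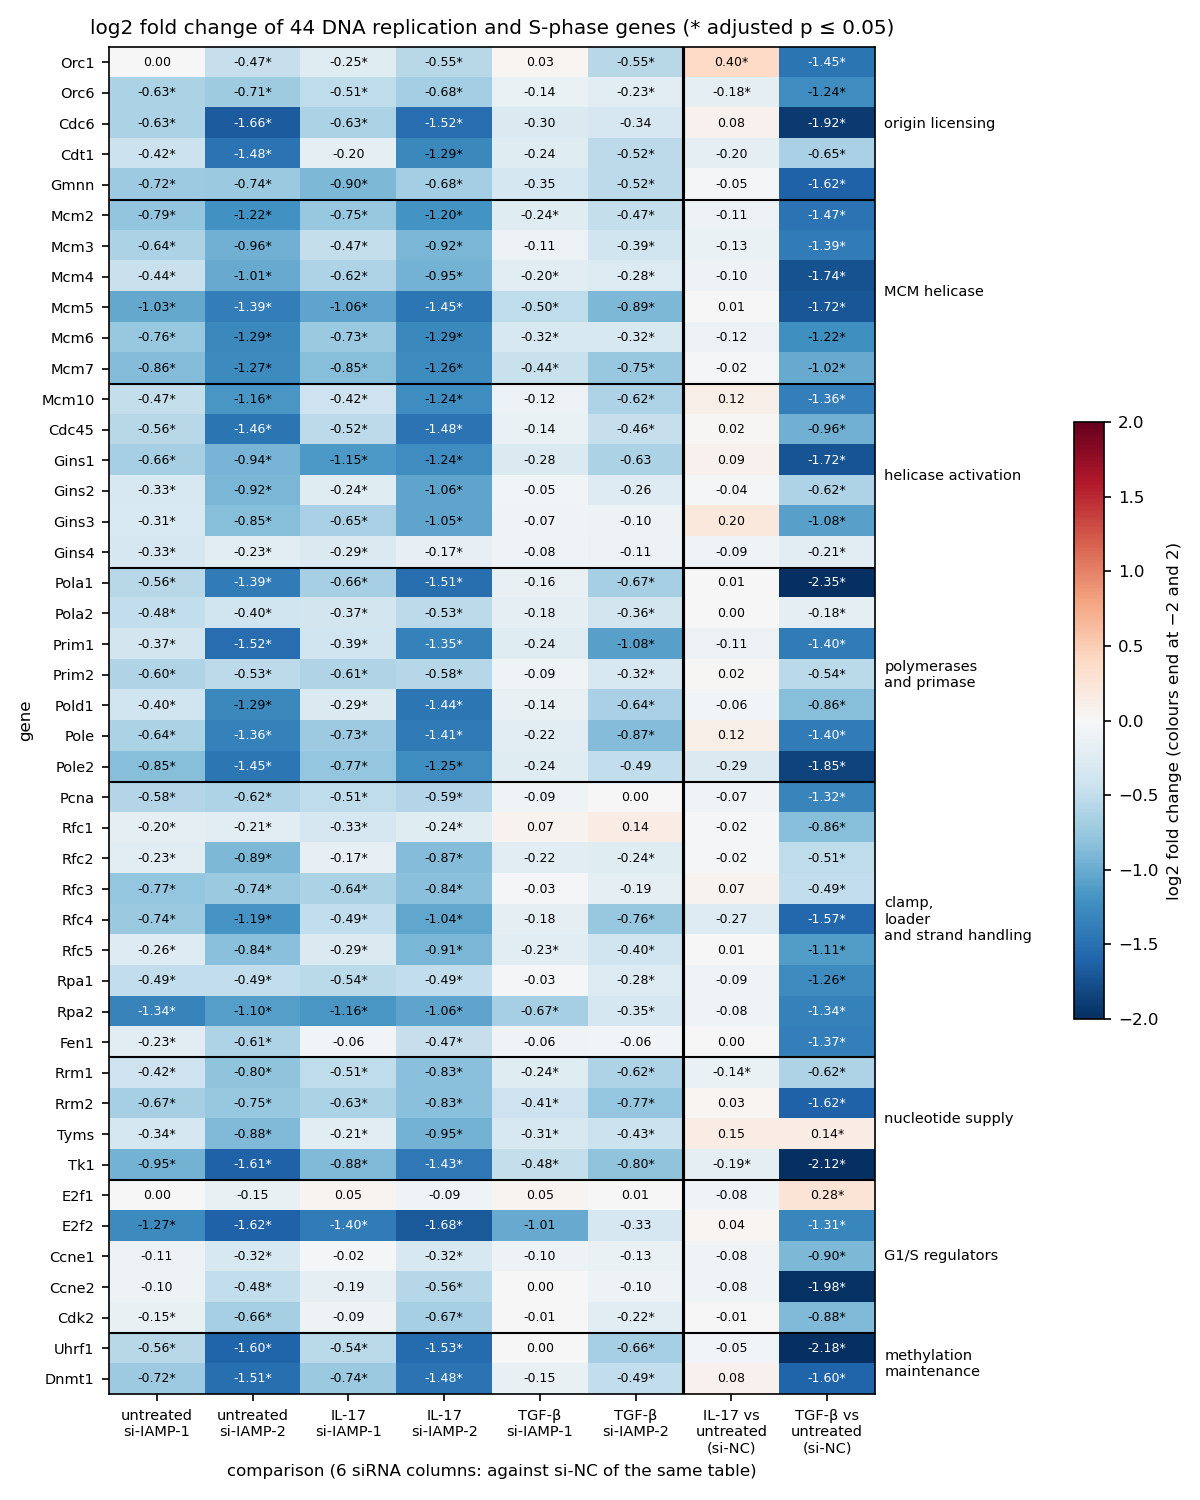
Log2 fold changes of the 44 genes (rows, grouped by role) for each siRNA against si-NC in the 3 fibroblast tables and for each stimulus against untreated cells with si-NC (columns), with blue for lower and red for higher and an asterisk for a call. Untreated and IL-17 columns were blue for nearly every gene; the TGF-β siRNA columns were paler and the TGF-β stimulus column was the darkest.

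IL-17 cells gave nearly the same picture in libraries of their own. Against si-NC, 38 of 44 genes fell and 0 rose with si-IAMP-1 (median -0.52), and 43 fell and 0 rose with si-IAMP-2 (median -0.998), beside 21.9% lower and 20.3% higher of all 19906 genes with si-IAMP-1 and 25.6% and 25% with si-IAMP-2. Falls of at least 1.5-fold were called in 19 and 34 genes (7.97% and 13.7% of all genes). Mcm5 went from 76.2 ± 2.64 CPM (SD, n = 3) with si-NC to 36.8 ± 1.74 and 28.3 ± 1.48 (SD, n = 3 each), Tk1 from 36.9 ± 1.73 to 20.2 ± 0.642 and 13.9 ± 0.369, and Rpa2 from 20.4 ± 0.601 to 9.16 ± 0.59 and 9.90 ± 1.08. E2f1 was at 20.2 ± 1.11, 21.1 ± 0.883 and 19.3 ± 0.126 CPM in the same order and was called with neither siRNA, although with library totals the E2f1 change with si-IAMP-2 was called (-0.16). With si-IAMP-2 against si-IAMP-1, 32 genes were lower and 0 higher (23.1% and 23.1% of all genes). Across the 44 genes, log2 fold changes in the untreated and IL-17 tables, which share no library, correlated with Pearson's r of 0.895 for si-IAMP-1 and 0.969 for si-IAMP-2 (genes are not independent replicates).

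Between IL-17 and untreated cells with si-NC, calls in both directions together were no more frequent among these genes than among all genes. 3 of 44 were lower with IL-17, Orc6 (-0.18), Rrm1 (-0.14) and Tk1 (-0.19), and Orc1 was higher (0.40), beside 6.1% lower and 6.13% higher of 22359 genes. Division of the estimated counts by 6 gave 8 calls in place of 4. Without replicate 1 of IL-17 si-NC the call was kept in 1 of these genes (Orc1), and without replicate 3 of untreated si-NC in 2 (Orc1 and Rrm1). The siRNA changes differed between IL-17 and untreated cells in 0 of 44 genes for either siRNA by edgeR, beside 1.73% and 1.64% of all genes, while 2 and 0 genes had an unadjusted p under 0.05 and DESeq2 called 1 for si-IAMP-1 and 0 for si-IAMP-2. Stimulus and table cannot be told apart, since each table holds libraries of 1 condition.

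TGF-β cells started from far lower levels, and here too stimulus and table cannot be told apart. With si-NC, 42 of 44 genes were lower than in untreated cells and 2 were higher, beside 27.5% lower and 28% higher of all genes, with a median log2 difference of -1.31 where the median of all genes was 0.019. The largest falls were in Pola1 (-2.35), Uhrf1 (-2.18), Tk1 (-2.12) and Ccne2 (-1.98). Pcna was at 50.8, 55.0 and 52.8 CPM with TGF-β (-1.32 ± 0.04, SE, adjusted p = 1.67e-23), and Mcm5 at 21.5, 22.8 and 24.5 (-1.72 ± 0.062, SE, adjusted p = 1.74e-21). E2f1 went the other way, at 25.3, 26.6 and 26.0 CPM (0.28 ± 0.057, SE, adjusted p = 6.86e-05), and Tyms rose by 0.14, with the call lost on leaving out any of 8 of the 27 libraries in turn (at log2 differences of 0.097 to 0.14 for Tyms). On leaving out each library, 42 to 44 genes were called in this comparison, and Tyms was not the only gene to lose its call. Ccne1, unlike E2f1, was lower (-0.90 ± 0.066, SE, adjusted p = 1.18e-13). The heart muscle markers, almost all Tnnt2, moved as well, from the 90.2 to 97.9 CPM given above to 5.29 to 5.88 CPM, the macrophage markers to 37.4 to 44.6, the endothelial markers to 88.5 to 90.0 and the fibroblast markers to 16482 to 17312, and their part in the result was not tested.

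Within TGF-β cells, the siRNAs lowered fewer of these genes and by less. The summed level of the 44 genes ran from 964 to 984 CPM with si-NC, from 844 to 870 with si-IAMP-1 and from 736 to 765 with si-IAMP-2. 11 of 44 fell and 0 rose with si-IAMP-1 (median -0.17), and 30 fell and 0 rose with si-IAMP-2 (median -0.40), beside 11.4% lower and 11.7% higher of all 19891 genes with si-IAMP-1 and 14.8% and 15.1% with si-IAMP-2. Falls of at least 1.5-fold were called in 1 gene (Rpa2) and in 12 genes, beside 1.91% and 5.44%. The 11 genes that fell with both siRNAs in all 3 tables were Mcm2, Mcm4, Mcm5, Mcm6 and Mcm7, Rfc5 and Rpa2, and the nucleotide genes Rrm1, Rrm2, Tyms and Tk1. Mcm5 was at 14.7, 17.1 and 16.7 CPM with si-IAMP-1 (-0.50 ± 0.074, SE, adjusted p = 7.36e-05) and at 12.1, 13.2 and 11.8 with si-IAMP-2 (-0.89 ± 0.075, SE, adjusted p = 7.84e-08), both below si-NC. Tk1 was at 10.0, 9.39 and 9.53 CPM with si-NC, 6.64, 7.25 and 6.93 with si-IAMP-1 and 5.85, 5.34 and 5.46 with si-IAMP-2, in 3 separate groups (-0.48 ± 0.086, SE, adjusted p = 0.000549, and -0.80 ± 0.087, SE, adjusted p = 1.74e-06).

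Other genes changed less under TGF-β or had no call. Pcna was at 50.5, 48.1 and 50.8 CPM with si-IAMP-1 and 53.7, 50.3 and 54.2 with si-IAMP-2, overlapping si-NC (-0.086 ± 0.048, SE, adjusted p = 0.246, and -0.0027 ± 0.048, SE, adjusted p = 0.979). Cdc6 was at 3.19, 3.42 and 4.18 CPM with si-NC, 3.02, 2.64 and 3.13 with si-IAMP-1 and 2.14, 3.37 and 3.02 with si-IAMP-2 (-0.30 ± 0.17, SE, adjusted p = 0.253, and -0.34 ± 0.17, SE, adjusted p = 0.156). E2f2 had 1.20, 1.58 and 0.825, 0.806, 0.754 and 0.23 and 1.05, 0.915 and 0.891 CPM in that order (-1.01 ± 0.37, SE, adjusted p = 0.0604, and -0.33 ± 0.36, SE, adjusted p = 0.569), and the si-IAMP-1 change of E2f2 was called under 3 other settings and on leaving out replicate 1 of si-IAMP-1 or replicate 3 of si-NC (-1.29 and -1.22). Mcm2 fell with si-IAMP-1 by a little (-0.24 ± 0.078, SE, adjusted p = 0.0298), with the call lost on leaving out any si-IAMP-1 replicate or si-NC replicate 1 or 2 (-0.20 to -0.27 for Mcm2), and more with si-IAMP-2 (-0.47 ± 0.078, SE, adjusted p = 0.000163). Rpa2 had 5.15, 5.47 and 5.45 CPM with si-IAMP-1 (-0.67 ± 0.12, SE, adjusted p = 0.00038) and 6.42, 5.65 and 7.96 with si-IAMP-2 (-0.35 ± 0.12, SE, adjusted p = 0.0303), the latter lost on leaving out si-IAMP-2 replicate 1 or 2 or si-NC replicate 1 or 3 (-0.24 to -0.36 for Rpa2). Dnmt1, Cdc45 and Pole2 had log2 fold changes of -0.15, -0.14 and -0.24 with si-IAMP-1, all with no call (Dnmt1 was called with library totals, at -0.17), and of -0.49 and -0.46, both called, and -0.49, not called, with si-IAMP-2. With si-IAMP-2 against si-IAMP-1, 19 genes were lower and 0 higher, beside 12% and 12% of all genes.

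The difference between the TGF-β and untreated siRNA changes was tested gene by gene. For si-IAMP-1 it was positive, meaning a smaller fall under TGF-β, in 23 genes and negative in 0 (median 0.33), beside 9.2% of all genes positive. For si-IAMP-2 it was positive in 33 and negative in 0 (median 0.51), beside 14.2%. All 6 MCM ring genes were called with both siRNAs, and of the 5 G1/S regulators 0 and 2. The differences were 0.49 ± 0.056 (SE, adjusted p = 4.75e-08) and 0.60 ± 0.056 (SE, adjusted p = 3.31e-10) for Pcna, 0.57 and 1.00 for Dnmt1, and 0.32 (no call, adjusted p = 0.206) and 1.301 for Cdc6. Rrm2 had -0.037 with si-IAMP-2 and no call. The knockdown itself was also smaller under TGF-β, with IAMP RNA at log2 fold changes of -2.23 and -2.65 beside -2.97 and -3.69 in untreated cells (differences of 0.73 ± 0.15, SE, adjusted p = 0.000541, and 1.02 ± 0.16, SE, adjusted p = 3.84e-06), and the part of this in the smaller falls was not tested.

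**Figure D4:**
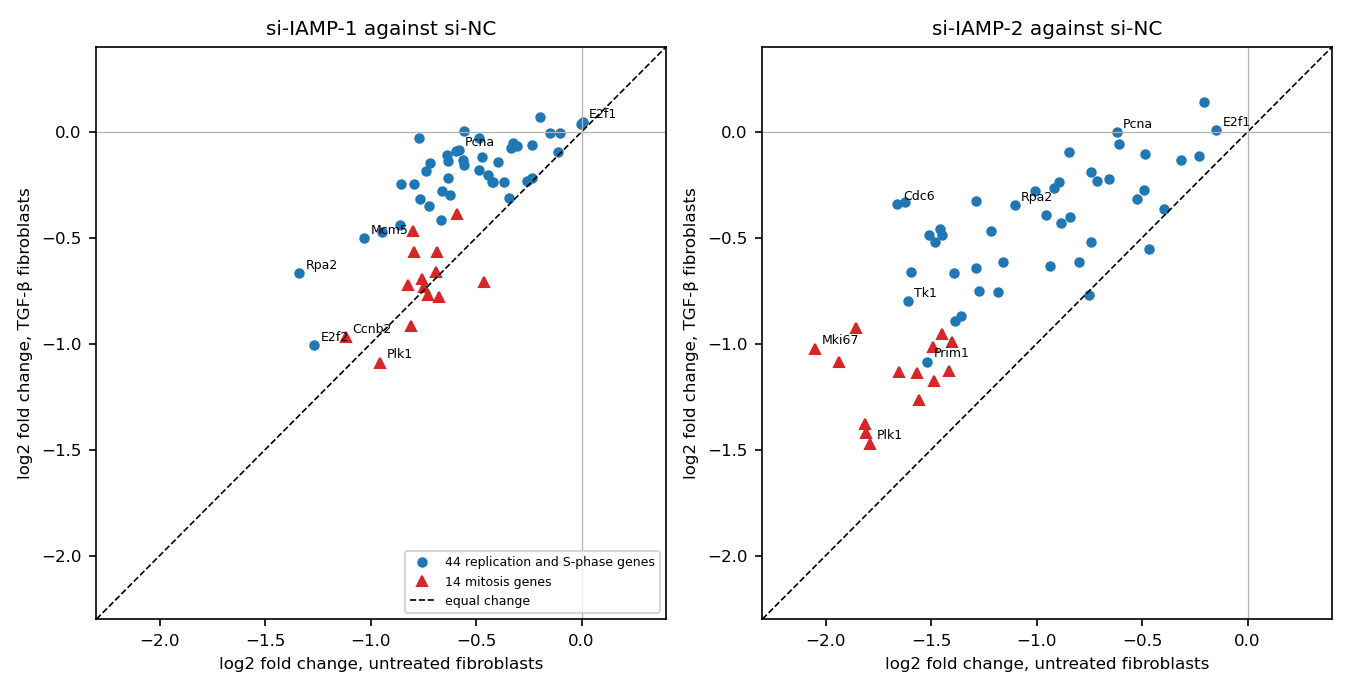
Log2 fold change of each gene in untreated (x axis) and TGF-β (y axis) fibroblasts for si-IAMP-1 (left) and si-IAMP-2 (right), for the 44 replication and S-phase genes (blue) and 14 mitosis genes (red); the dashed line marks equal change. For si-IAMP-1 the mitosis genes scattered about the line while all 44 replication genes lay above it, and for si-IAMP-2 all 14 mitosis genes and 42 of the 44 lay above it.

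Genes that act beside the 44 were counted from lists of their own. These counts, and those of mitosis genes below, stand beside the shares of all genes given above for each comparison. Of 43 other replication genes, 25 fell and 6 rose with si-IAMP-1 in untreated cells and 32 fell and 0 rose with si-IAMP-2 (IL-17, 28 and 5, then 32 and 1, and TGF-β, 8 and 1, then 22 and 5). Their largest mean changes were in Ticrr (-0.62 and -1.87), which helps to activate the helicase, Ccna2 (-1.16 and -1.71), the S-phase cyclin A2, Asf1b (-0.83 and -1.53), a histone chaperone, and Dscc1 (-0.70 and -1.56). Of 21 genes of G1/S control, 14 fell and 2 rose with si-IAMP-1 and 15 fell and 5 rose with si-IAMP-2 (IL-17, 14 and 1, then 15 and 3, and TGF-β, 9 and 0, then 10 and 1). Ccnd1, the cyclin D1 of early G1, had the largest fall with both (-1.85 and -2.05), and E2f7 (-0.49 and -2.03) and E2f8 (-0.90 and -1.35), both repressors, and Skp2 (-0.53 and -1.54) fell as well.

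Mitosis genes fell without exception. All 14 on the list fell with both siRNAs in each of the 3 tables, with medians of -0.75 and -1.61 in untreated, -0.75 and -1.68 in IL-17 and -0.72 and -1.13 in TGF-β cells. The siRNA change differed between TGF-β and untreated cells in 0 of 14 for si-IAMP-1 (3 at an unadjusted p under 0.05) and in 13 of 14 for si-IAMP-2, where 23 and 33 of the 44 replication genes were called. Of all genes, 19.5% and 29.5% were called in these comparisons, both directions together. Plk1, a mitotic kinase, changed by -0.96 in untreated and -1.09 in TGF-β cells with si-IAMP-1, and Ccnb2, a mitotic cyclin, by -1.12 and -0.97. Mki67 and Aurkb were at -0.80 and -0.82 in untreated cells and at -0.47 and -0.72 in TGF-β cells. Between TGF-β and untreated cells with si-NC, all 14 were lower with TGF-β, with a median of -2.04, beside 27.5% of all genes. Stimulus and table cannot be told apart in this difference.

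In hearts these genes were low, and edgeR called 0 of the 40 tested between KO and Het. Over all 16675 genes 0% were called, with 601 at an unadjusted p under 0.05, of which 3 were replication genes, and DESeq2 called 0 of the 44. The 44 genes summed to 239, 230.4, 231 and 229 CPM in Het and 229, 219, 238 and 219 in KO, and the groups overlapped. Pcna was at 15.7, 14.4, 16.0 and 14.5 CPM in Het and 15.5, 16.2, 15.7 and 14.5 in KO, and Mcm5 at 1.80, 1.87, 1.74 and 1.88 and 1.96, 1.94, 1.73 and 1.68. Orc1, Cdc6, Mcm10 and E2f2 did not pass the filter on low counts. Counts were small for others, with E2f1 at 19, 0, 18 and 16 counts in Het and 25, 18, 13 and 14 in KO, where a count of 0 allows up to 3 counts. Gins2 had the largest difference (-3.25 ± 1.07, SE, adjusted p = 0.999967), with 0.419, 12.7, 14.3 and 14.9 CPM in Het and 2.91, 0.422, 0.699 and 0.431 in KO, so that 3 Het hearts stood apart from all others. Gse1, which shares exonic sequence with Gins2 on the other strand, was at 32.0, 16.4, 15.7 and 24.1 CPM in the same Het hearts and 27.2, 29.5, 30.5 and 30.2 in KO, and the part of Gse1 reads in the Gins2 values was not tested.

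Set beside the cultured fibroblasts, 42 of 44 genes had all 9 si-NC libraries above all 8 hearts on CPM of library totals, 1 (Gmnn) had all below, and 1 (Pold1) overlapped, where 25.8% of the 36286 genes detected had all fibroblast libraries above. The ratio of medians ran from 0.769 for Gmnn to 90.4 for Rrm2, with a median of 12.4 over the 43 genes with a heart median above 0. Rrm2 had a fibroblast range of 37.1 to 121 CPM and a heart range of 0.964 to 1.81, Tyms 45.1 to 55.1 and 0.716 to 1.02, and Gmnn 4.53 to 16.3 and 17.3 to 22.9. Tissue, table and the unit of counting cannot be told apart in this comparison, and it carries no test.

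**Figure D5:**
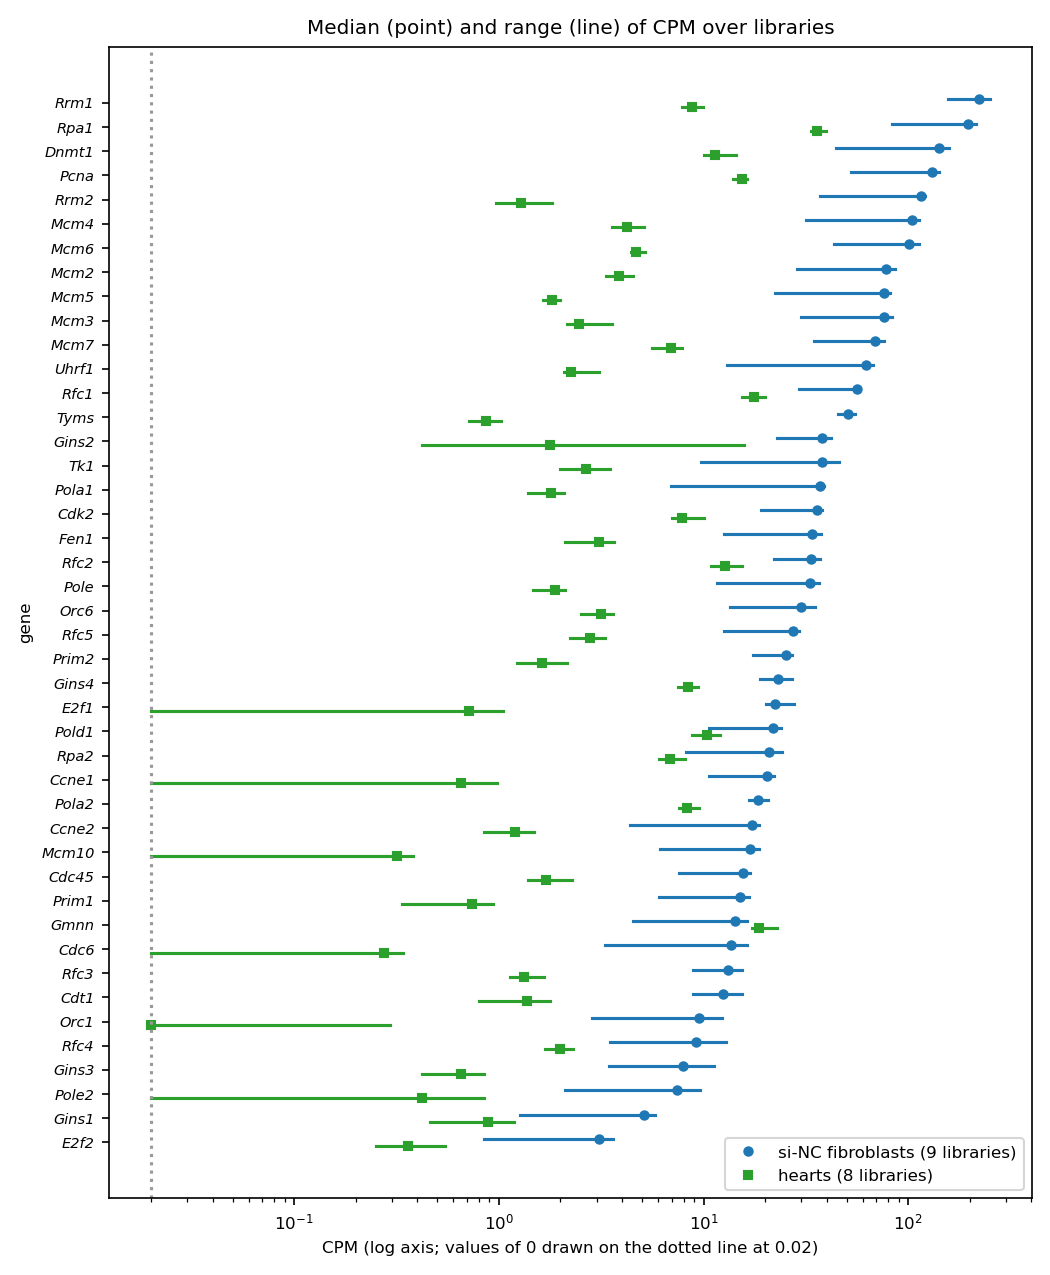
CPM of library totals (log axis, values of 0 drawn on the dotted line) of the 44 genes in 9 si-NC fibroblast libraries (blue) and 8 hearts (green), as median (point) and range (line). For 42 genes the blue range lies wholly to the right of the green range; Gmnn lies to the left and Pold1 overlaps.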

How the data were processed

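RNA was sequenced from 27 fibroblast and 8 heart libraries. Per the labels, the authors trimmed reads with cutadapt, aligned them to GRCm38 with HISAT2 and quantified genes with StringTie, with DESeq2 also named; the strand setting is not given in the sources used here. The deposited values of the 3 fibroblast tables are estimated counts per gene (expected counts, whole numbers). Their most frequent value among genes seen in 1 library is 6, so the count of 1 read pair can be up to 6 and the floor for a gene at 0 is 18 estimated counts. The deposited heart values are raw counts per gene, with a floor of 3 counts. Intervals and floors cover counting error only.

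Groups were taken from the labels. Each table was fitted on its own with edgeR 4.0.16 (TMM, filterByExpr, quasi-likelihood test) in R 4.3.3, with all its groups in the fit, and p-values were adjusted by Benjamini-Hochberg over all genes tested. The 3 fibroblast tables were fitted jointly for the stimulus comparisons and for differences in siRNA change. The scripts were tested on simulated data. CPM are on TMM-scaled library sizes unless library totals are named, and TMM factors ran from 0.959 to 1.05 in fibroblasts and from 0.967 to 1.05 in hearts. Alternatives were DESeq2 1.42.0, size factors of that kind, library totals (added after the data were seen), other filters, fold thresholds, division by 6, the replicate number as a block, only the groups compared, and leaving out each library.

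Full values are given for Pcna, Mcm2, E2f1, Ccne1 and the gene of each role with the largest mean change over both siRNAs in untreated cells, with other members as examples and up to 4 genes of each neighbouring list. The members and lists were chosen with earlier results of these data known. Same-numbered libraries did not deviate together (0 of 9 pairs in each fibroblast table over 0.1, from -0.065 to 0.028), so the numbers were not taken as pairs. 0 columns were left out.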

Additional observations from a re-analysis of the deposited data

Results flagged for a closer look

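The siRNA change differed between TGF-β and untreated fibroblasts, by edgeR's test of the difference itself, in 23 of the 44 genes for si-IAMP-1 and in 33 for si-IAMP-2, all toward smaller falls under TGF-β. Of all genes, 9.2% and 14.2% had a positive difference called. Among the genes given with full values, the log2 differences were 0.49 and 0.60 for Pcna, 0.54 and 0.73 for Mcm2, 0.52 and 0.47 for Mcm5, 0.42 and 0.98 for Cdc45, 0.60 and 0.94 for Pole2, 0.66 and 0.73 for Rpa2, 0.46 and 0.79 for Tk1, and 0.57 and 1.00 for Dnmt1, in the order si-IAMP-1 and si-IAMP-2. Cdc6 (1.301) and E2f2 (1.27) differed with si-IAMP-2. For Pole2 with si-IAMP-1 the call was lost without a filter on low counts (0.60), with the fit of the compared groups (0.60) and on leaving out any of 19 libraries (0.45 to 0.65). For E2f2 it was lost without TGF-β si-NC replicate 3 (1.07).

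In hearts, 8 of 88 groups of 4 held a library whose gap to the others passed Dixon's limit for 4 samples. Orc1 in Het hearts, counted among the 88, was at 0 throughout and could not be tested. For normally distributed values chance gives about 1 in 20, and counts near 0 need not follow that rate. Orc1 stood at 0.296 CPM in 1 KO heart and at 0 in the other KO hearts. Mcm10 was at 0 in 1 Het heart beside 0.335 to 0.392 in the others. Cdc45 was at 1.92 CPM in 1 Het heart beside 1.40 to 1.48, and Cdk2 at 9.80 in 1 Het heart beside 7.01 to 7.40. Rfc5 was at 3.39 CPM in 1 KO heart beside 2.67 to 2.79, and Tk1 at 3.58 beside 2.59 to 2.66. Gins2 was at 0.419 CPM in 1 Het heart beside 12.7 to 14.9, and at 2.91 in 1 KO heart beside 0.422 to 0.699.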

How the results depend on the processing

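Of 218 counts of called genes recomputed under alternatives, 193 stayed within 1.5 times the reported count and 25 did not. Of the single-gene values, 854 of 864 under other settings and 1589 of 1620 on leaving out a library stayed called or stayed not called. Among values called in the reported or the recomputed fit, 0 changed sign, and sign changes of values called in neither were not counted. DESeq2 called 1 gene where the si-IAMP-1 change differed between IL-17 and untreated cells (0 by edgeR), and division of the estimated counts by 6 gave 8 genes for IL-17 against untreated (4 reported); the cause was not tested. Fold thresholds lower counts by construction. At 1.5-fold, the genes called for si-IAMP-1 were 19 in untreated, 19 in IL-17 and 1 in TGF-β cells, for si-IAMP-2 in TGF-β cells 12, for si-IAMP-2 against si-IAMP-1 14, 14 and 4 in that order of tables, for IL-17 against untreated 0, and for the TGF-β differences 3 and 18. Of all genes, 6.65%, 7.97% and 1.91% were called lower at 1.5-fold with si-IAMP-1, and 5.44% with si-IAMP-2 in TGF-β cells. Both directions together, the shares were 15.9%, 15.7% and 3.96% between the siRNAs, 3.07% for IL-17, and 5.43% and 11.2% for the TGF-β differences. At a log2 change of 1, they were 3, 4 and 0 for si-IAMP-1, 20, 22 and 1 for si-IAMP-2, 4, 2 and 0 for the siRNAs compared, 0 for IL-17 and 29 for TGF-β against untreated, and 0 and 3 for the TGF-β differences. At this threshold, 2.61%, 3.44% and 0.578% of all genes were called lower with si-IAMP-1 and 7.23%, 7.77% and 2.17% with si-IAMP-2. Between the siRNAs, 6.65%, 6.45% and 1.16% were called in either direction. For IL-17 it was 1.46%, for TGF-β 20.8%, and for the TGF-β differences 2.31% and 4.95%. On leaving out each library, IL-17 against untreated gave 1 to 5 genes, and genes higher with si-IAMP-2 in TGF-β cells 0 to 1, which is 1 without TGF-β si-IAMP-2 replicate 2. With the replicate number as a block, 40 and 43 genes fell in untreated, 37 and 43 in IL-17 and 12 and 30 in TGF-β cells, and the pairing check gave no reason to use it. No paired analysis was possible for the hearts because their columns carry no replicate numbers shared between groups. Low counts limit the heart values, and 4 of the 44 genes were not tested there.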
